A study of Homo sapiens with 6 samples.

Results

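The chemokine genes CXCL1, CXCL2, CXCL3, CXCL5, CXCL6, CXCL8, CXCL10, CXCL16, CCL20 and CCL28 were measured in HCC827 cells grown in 3D and in 2D. These 10 genes were chosen from earlier results of the same 3D against 2D comparison, so their differences are given as a description with standard errors and with no test. Of the 10 genes, 9 had a probe set of their own among the 14232 genes with such a probe set, and 1 (CXCL1) was measured only by a probe set that it shares with CXCL2. HCC827 is an established lung adenocarcinoma cell line that carries a deletion in the gene of the receptor kinase EGFR, and no drug was given to the cells studied here. The 3D group held 3 arrays of cells labelled as embedded in Matrigel, a basement membrane extract from a mouse tumour. The study formed spheroids in hanging drops or in HydroCell plates and does not say which served for the arrays. Its text on gene expression calls the 3D cultures spheroids and does not mention embedding. The 2D group held 3 arrays of flat cultures without a coating. The methods of the study describe the embedding matrix as Matrigel mixed with medium and with collagen type I from rat tails, while the labels name Matrigel alone. All 6 arrays came from 1 cell line, and 3D growth and contact with the matrix cannot be told apart in this design. The labels do not say whether replicates were separate cultures, so every p-value measures only the spread between these samples.

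Chemokines are small secreted proteins that guide leukocytes along concentration gradients and act through G protein-coupled receptors. The CXC chemokines CXCL1, CXCL2, CXCL3, CXCL5, CXCL6 and CXCL8 carry the residues glutamate, leucine and arginine before their first cysteines, bind CXCR1 or CXCR2 and attract neutrophils. CXCL10 lacks these residues, is induced by interferons and attracts T cells and natural killer cells through CXCR3. Epithelial cells, those of the airways included, make many of these proteins in response to interleukin-1, TNF, interleukin-17 or microbial products, largely through the transcription factor NF-kB.

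The promoters of the neutrophil-attracting genes are shown because this group holds the 3 largest differences among the CXC members and its genes share a short sequence just before the start of transcription. That sequence, in its reverse form, also stood in the promoters of CXCL10 and CXCL11 given further below. The windows below run 5′ to 3′ from position -100 to position -1, counted from the base before the start, and were read from RefSeq promoters on GRCh38.p14. They lie at chr4:73869293-73869392 (CXCL1, plus strand), chr4:74099196-74099295 (CXCL2, minus strand), chr4:74038690-74038789 (CXCL3, minus strand), chr4:73998678-73998777 (CXCL5, minus strand), chr4:73836578-73836677 (CXCL6, plus strand) and chr4:73740469-73740568 (CXCL8, plus strand). Capitals mark matches to GGNNNTTCC on either strand, a pattern of the kind bound by NF-kB.
CXCL1: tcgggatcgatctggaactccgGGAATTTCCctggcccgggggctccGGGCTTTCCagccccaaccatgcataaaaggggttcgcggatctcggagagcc
CXCL2: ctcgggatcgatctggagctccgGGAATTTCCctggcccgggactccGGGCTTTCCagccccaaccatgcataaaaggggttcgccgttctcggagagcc
CXCL3: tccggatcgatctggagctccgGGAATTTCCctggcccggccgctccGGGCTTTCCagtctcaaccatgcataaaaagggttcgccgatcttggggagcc
CXCL5: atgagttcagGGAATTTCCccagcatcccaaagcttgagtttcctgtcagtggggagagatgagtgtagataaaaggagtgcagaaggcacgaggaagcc
CXCL6: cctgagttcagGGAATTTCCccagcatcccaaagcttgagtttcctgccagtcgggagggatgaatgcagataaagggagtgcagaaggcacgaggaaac
CXCL8: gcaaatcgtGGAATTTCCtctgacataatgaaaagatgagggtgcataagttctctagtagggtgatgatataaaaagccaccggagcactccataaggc

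The sequence GGAATTTCC stood in all 6 of these windows, with its first base at position -78, -77 or -78 in CXCL1, CXCL2 and CXCL3 and at -90, -89 or -91 in CXCL5, CXCL6 and CXCL8. It matches the pattern on both strands. A second match, GGGCTTTCC, began at -53 in CXCL1, CXCL2 and CXCL3. The pattern GGNNNTTCC was found in 20.1% of the 35116 promoters searched (from 250 bases before to 50 bases after each start, both strands), while GGAATTTCC or its reverse GGAAATTCC, a form picked after these promoters were read, was found in 0.461%. These genes are paralogs, and the longest run of bases shared between 2 promoters was 42 for CXCL1 with CXCL2, 37 for CXCL2 with CXCL3 and 45 for CXCL5 with CXCL6, against 9 for CXCL8 with each of the other 5. A match describes the letters only and is no evidence of binding.

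The promoters of CXCL10, of its neighbour CXCL11 and of CCL20 are set beside them because these genes differ from the neutrophil-attracting group in their inducers or their place in the genome. The windows are chr4:76023598-76023727 (CXCL10, minus strand, position -230 to -101), chr4:76036071-76036170 (CXCL11, minus strand, -100 to -1) and chr2:227813742-227813841 (CCL20, plus strand, -100 to -1). Capitals mark GGNNNTTCC on either strand and, in CXCL10, also a match to an interferon-stimulated response element (ISRE) pattern of a pair of GAAA blocks with NN between them.
CXCL10: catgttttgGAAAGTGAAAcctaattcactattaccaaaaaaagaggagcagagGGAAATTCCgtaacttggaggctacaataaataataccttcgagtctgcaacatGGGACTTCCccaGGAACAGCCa
CXCL11: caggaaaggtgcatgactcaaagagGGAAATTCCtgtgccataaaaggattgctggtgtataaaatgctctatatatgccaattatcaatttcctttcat
CCL20: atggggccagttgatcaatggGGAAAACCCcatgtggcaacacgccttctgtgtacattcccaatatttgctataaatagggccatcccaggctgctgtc

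CXCL10 held the ISRE match GAAAGTGAAA at position -221, and its other capitals, at -176, -122 and -110, were matches to GGNNNTTCC. The match at -176 in CXCL10 and that at -75 in CXCL11 were GGAAATTCC, the reverse of GGAATTTCC. This form is therefore not particular to the neutrophil-attracting genes. The ISRE pattern was found in 3.57% of all promoters and in none of the other members with a promoter in the table. CXCL9, which like CXCL10 and CXCL11 is an interferon-induced ligand of CXCR3, held an ISRE match at -171 and none to GGNNNTTCC. The 2 promoters of CCL28 held no match to either pattern, and that of CXCL16 was not analysed here. The pattern TGANTCA, of the kind bound by AP-1 (7.71% of promoters), was found at -137 in CXCL8 and at -87 in CXCL11.

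Signals were log2 values made by the authors with RMA, on a scale from 1.6 to 13.59 with a median of 6.26. Gaps, sums and percentiles of signal over probe sets are descriptions and do not measure which gene has more RNA. Among the arrays, 3D replicate 2 stood apart on the first principal component (43.1% of the variance) at 58.8, against 22.8 and -2.99 for the other 3D replicates and -33.3, -8.04 and -37.2 for the 2D replicates. Of all 22011 probe sets, 32 were higher in 3D (0.145%) and 52 were lower (0.236%) by limma at an adjusted p under 0.05. An unadjusted p under 0.05 was reached by 7.17% of probe sets with a higher and 7.94% with a lower signal in 3D. The 3D arrays lay wholly above the 2D arrays for 12.7% of probe sets and wholly below for 10%. The label of an epithelial line was checked on its markers, of which KRT8, a keratin of simple epithelia, had a mean log2 signal of 10.17 in 3D and 10.30 in 2D, and EPCAM, an epithelial adhesion protein, 9.64 in 3D and 9.83 in 2D. PTPRC, which marks leukocytes, had a mean log2 signal of 3.69 in 3D and 3.60 in 2D, and this 2D mean lay at percentile 7.15 of all probe sets.

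Most neutrophil-attracting genes had higher signals in 3D than in 2D, by up to 2.85 on the log2 scale. CXCL8 (probe set 2731332), which encodes interleukin-8, the best-known neutrophil attractant of human epithelium, had log2 signals of 8.68, 7.50 and 8.77 in 3D replicates 1 to 3, against 5.74, 5.29 and 5.36 in 2D replicates 1 to 3. Every 3D array lay above every 2D array, and 3D replicate 2 was well below the other 3D arrays. The log2 difference was 2.85 (standard error, SE, 0.34), or 7.23-fold, and 3.26 without 3D replicate 2.

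CXCL5 (probe set 2773369), an attractant that lung epithelium makes in inflammation, had log2 signals of 8.46, 8.14 and 8.78 in the 3D arrays and 6.04, 6.35 and 6.41 in the 2D arrays. The groups were far apart, and the arrays of each lay close together. Its log2 difference was 2.19 (SE 0.21), or 4.58-fold. CXCL2 (probe set 2773434), an early product of macrophages and epithelium, had log2 signals of 8.08, 8.31 and 8.73 in 3D, against 6.99, 6.97 and 6.78 in 2D. Here 3D replicate 2 was not the lowest 3D array, and the groups did not overlap. The log2 difference was 1.46 (SE 0.20), or 2.75-fold.

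The probe set that CXCL1 shares with CXCL2 (2731381) had log2 signals of 9.69, 9.31 and 9.58 in 3D and of 6.92, 7.81 and 7.28 in 2D. The 2D arrays varied more than the 3D arrays, and the groups did not overlap. Its log2 difference was 2.19 (SE 0.24), or 4.55-fold, which cannot be assigned to CXCL1 or CXCL2 alone. This value is therefore counted with neither gene below.

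CXCL6 and CXCL3 had smaller differences than CXCL8, CXCL5 and CXCL2. CXCL6 (probe set 2731350), a close relative of CXCL5 that binds both CXCR1 and CXCR2, had log2 signals of 5.14, 4.57 and 5.33 in 3D and 4.07, 4.33 and 4.19 in 2D. All 3D arrays lay above the 2D arrays, with 3D replicate 2 nearest to them. Its log2 difference was 0.81 (SE 0.22), and no fold is given because its 2D mean lay at percentile 13.1 of all probe sets, below the percentile of 25 set for a fold, and the files hold no call of signal against background. CXCL3 (probe set 2773387), which is closely related to CXCL1 and CXCL2, had log2 signals of 6.52, 6.77 and 6.62 in 3D and 6.50, 6.55 and 6.24 in 2D. The groups overlapped, and the log2 difference of 0.21 (SE 0.16) was little larger than the spread of the 2D arrays (SD 0.17, n = 3). Without 2D replicate 3 the difference was 0.11. CXCL1, CXCL2 and CXCL3 have similar transcripts, and how far the probes of 1 gene bind RNA of another was not tested.

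**Figure D1:**
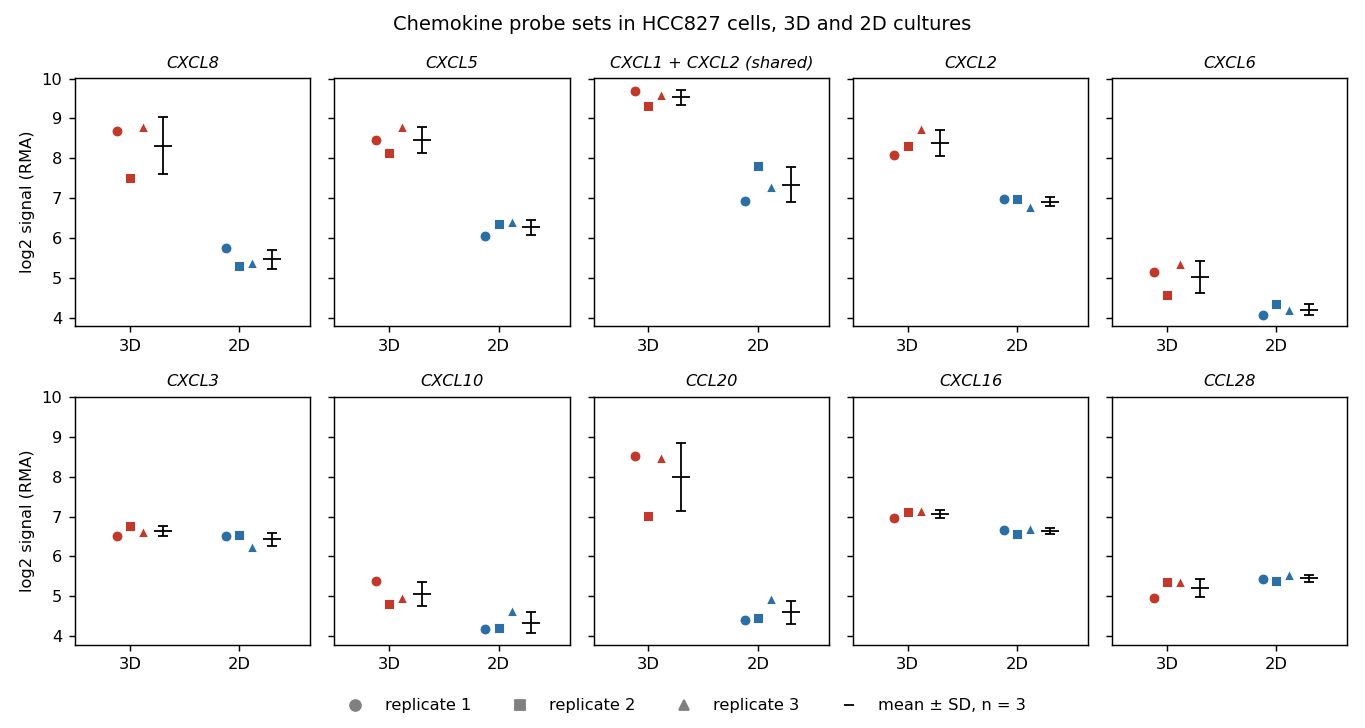
Log2 RMA signal (vertical axis) of the 9 members with a probe set of their own and of the probe set shared by CXCL1 and CXCL2, in 3D (red) and 2D (blue). Each point is an array, the shape gives the replicate, and the black marks show the mean and SD of 3 arrays. The 3D arrays lie above the 2D arrays in all panels except CXCL3, where they overlap, and CCL28, where they lie below.

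CXCL10 (probe set 2773958), the interferon-induced ligand of CXCR3, was also higher in 3D, by less than CXCL8, CXCL5 and CXCL2. It had log2 signals of 5.39, 4.80 and 4.97 in 3D and of 4.18, 4.19 and 4.64 in 2D. The groups did not overlap, but 3D replicate 2 and 2D replicate 3 were close. The log2 difference was 0.71 (SE 0.21), at a dim 2D signal (percentile 14.8), so that no fold is given. Without 3D replicate 1, its brightest array, the difference was 0.54.

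CXCL9 and CXCL11 lie beside CXCL10 and share its receptor. CXCL11 had log2 signals of 6.87, 6.02 and 6.09 in 3D and 5.41, 4.92 and 5.70 in 2D, a log2 difference of 0.99 (SE 0.29, adjusted p = 0.20 by limma). CXCL9 had log2 signals of 4.25, 4.30 and 4.15 in 3D and 3.66, 4.14 and 4.10 in 2D, a log2 difference of 0.26 (SE 0.18, adjusted p = 0.50 by limma). For both genes the 3D arrays lay above the 2D arrays, by a narrow margin for CXCL9, and neither gene passed the test.

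Averaged over the 5 neutrophil-attracting genes with a probe set of their own, the log2 signal was 7.36 ± 0.29 in 3D and 5.85 ± 0.05 in 2D (SD, n = 3 each), a difference of 1.51, against 0.71 for CXCL10. The neutrophil-attracting mean less CXCL10 was 1.99, 2.26 and 2.68 in 3D replicates 1 to 3, against 1.69, 1.70 and 1.16 in 2D replicates 1 to 3. The gap was thus wider in every 3D array than in any 2D array, and by 0.79 on average. Leaving out single arrays gave 0.61 at the lowest (3D replicate 3 left out) and 0.95 at the highest (3D replicate 1 left out). Set against the mean of CXCL9, CXCL10 and CXCL11, the gap differed by 0.85. Within the neutrophil-attracting genes the differences spread more widely than this contrast, from 0.21 for CXCL3 to 2.85 for CXCL8, and that of CXCL3 was smaller than that of CXCL10. The difference of CXCL11 (0.99) was larger than those of CXCL6 (0.81) and CXCL3. The 2D mean of CXCL10 lay at percentile 14.8, against 13.1 for CXCL6, 31.7 for CXCL8, 50.2 for CXCL5, 54.2 for CXCL3 and 65.4 for CXCL2. How far a dim signal narrows a difference was not tested. No test is given, as both sides were chosen with these differences known.

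CCL20 (probe set 2530713) had the largest difference of all members. Its protein binds CCR6 and attracts immature dendritic cells, B cells and T cells of the interleukin-17 type to epithelia. The log2 signals were 8.51, 7.02 and 8.47 in 3D and 4.41, 4.45 and 4.93 in 2D. The groups were far apart, and 3D replicate 2 lay lower than its group as it did for CXCL8. The log2 difference was 3.40 (SE 0.40) and 3.89 without 3D replicate 2, with no fold given at a 2D percentile of 18.2.

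CXCL16 and CCL28 differed by less than 0.5 on the log2 scale, in opposite directions. CXCL16 (probe set 3742285), made as a membrane protein that is shed and that binds CXCR6, had log2 signals of 6.96, 7.12 and 7.14 in 3D and of 6.66, 6.56 and 6.69 in 2D. The groups did not overlap and each was tight, with a log2 difference of 0.44 (SE 0.14), or 1.35-fold. CCL28 (probe set 2855542), a mucosal ligand of CCR10 and CCR3, had log2 signals of 4.96, 5.35 and 5.35 in 3D and of 5.44, 5.37 and 5.53 in 2D. It was the only member whose 3D arrays all lay below the 2D arrays. Its 3D replicates 2 and 3 came close to 2D replicate 2, and the log2 difference of -0.23 (SE 0.17) was -0.10 without 3D replicate 1.

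Of the 9 members, 4 were past the threshold with a higher signal (CXCL2, CXCL5, CXCL8 and CCL20) beside 0.145% of all probe sets, 0 were past it with a lower signal beside 0.236%, and 5 were not past it. The groups did not overlap for 7 members with 3D above (12.7% of all probe sets) and for 1 with 3D below (10%). The median log2 difference of the 9 members was 0.81, against 0.07 over all 14232 genes. Nothing is read from these counts, since this comparison chose the members. Leaving out 2D replicate 1, 2 or 3 or 3D replicate 1 left 0 members past the threshold. The same 4 passed when either 3D replicate 2 or 3D replicate 3 was left out. Over all probe sets, 0 passed without each 2D replicate and 7 without 3D replicate 1. Without 3D replicate 2, 150 of all probe sets passed, and without 3D replicate 3, 145.

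The neutrophil-attracting genes form a cluster on chromosome 4, in the RefSeq order CXCL8, CXCL6, PF4V1, CXCL1, PF4, PPBP, CXCL5, CXCL3 and CXCL2. Differences did not change smoothly along it. The platelet chemokine genes PF4 and PF4V1 lie between these genes and were measured by 2 shared probe sets with log2 differences of 0.02 (SE 0.26) and 0.08 (SE 0.17), both at signals near the bottom of the scale. PPBP, another platelet chemokine gene, had a log2 difference of 0.45 (SE 0.20, adjusted p = 0.338 by limma) with overlapping groups. CXCL3 (0.21) and CXCL2 (1.46) are neighbours. The second cluster on this chromosome runs CXCL9, ART3, CXCL10 and CXCL11, and ART3, which encodes no chemokine, had a log2 difference of -0.01 (SE 0.26).

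**Figure D2:**
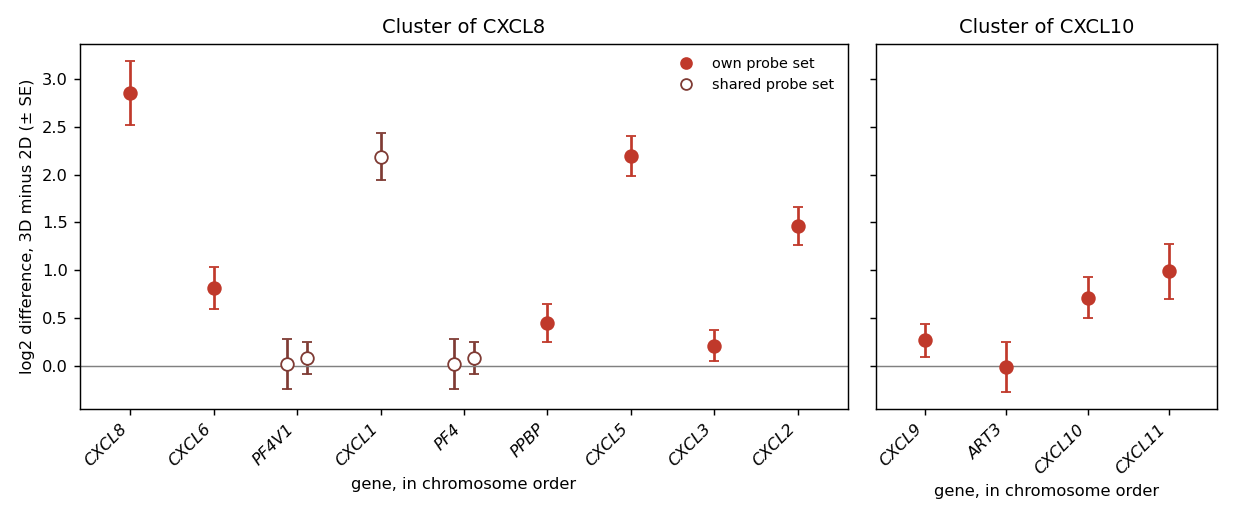
Log2 difference, 3D minus 2D (vertical axis, bars show the standard error of the limma fit), of the genes of both chemokine clusters on chromosome 4 in chromosome order (horizontal axis, not to scale). Open points are probe sets shared by several genes. CXCL8, CXCL5, CXCL2 and the probe set of CXCL1 and CXCL2 lie above 1, and CXCL3, PF4, PF4V1 and ART3 lie near 0.

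Not all members varied together within a group. Of the 9 members, 5 had their lowest 3D signal in replicate 2 (CXCL5, CXCL6, CXCL8, CXCL10 and CCL20) and 4 in replicate 1 (CXCL2, CXCL3, CXCL16 and CCL28). CXCL8 lay 0.82 and CCL20 0.98 below their 3D means in replicate 2. Over deviations of the 6 arrays from their group means, Pearson's r was 0.90 for CXCL5 with CXCL6, 0.85 for CXCL8 with CCL20, 0.87 for CXCL6 with CCL20 and 0.95 for CXCL16 with CCL28, but -0.94 for CXCL3 with CXCL10. These are descriptions of 6 arrays that share normalization and RNA sample between genes, and 3D replicate 2 has the largest deviation of CXCL5, CXCL6, CXCL8 and CCL20.

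**Figure D3:**
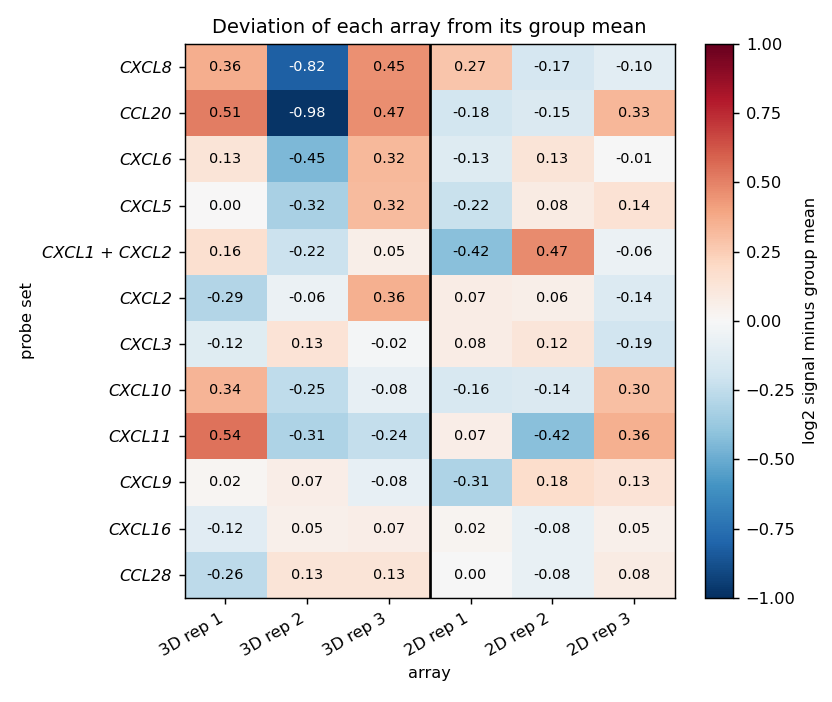
Deviation of each array (columns, 3D left of the line, 2D right) from the mean log2 signal of its group, for the members, the shared probe set and CXCL9 and CXCL11 (rows), with red above and blue below the mean. In 3D replicate 2, CXCL8 is at -0.82 and CCL20 at -0.98, while among the 3D arrays CXCL2, CXCL3, CXCL16 and CCL28 are lowest in replicate 1.

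The genes whose 6 signals were most like the mean standardised signal of the 5 neutrophil-attracting genes were TSPAN8, ANKRD34B, OR6W1P, MGAM, CIMAP3, SGK1, TLNRD1, EBPL, OR2W1 and CCDC120, with Pearson's r over 6 arrays of 0.99 for TSPAN8 to 0.98 for CCDC120. Of these 10, TSPAN8, which encodes a tetraspanin of the cell surface (log2 difference 3.94), and SGK1, which encodes a kinase induced by serum and glucocorticoids (1.66), were past the threshold. LCN2 ranked at place 24 (r = 0.97), NFKBIA at 53 (0.96), CCL20 at 99 (0.95) and CXCL10 at 1513 (0.76). This ranking holds the group difference itself. After group means were taken off, the 10 most alike were TLR1, MEST, POLE4, CDC25C, SNRPC, C3, KAT7, CAGE1, SAMD4A and S100P (r of 0.99 for each), with r of 0.89 for LCN2, 0.57 for CCL20 and -0.12 for CXCL10. Both lists hold the highest r among all genes with a probe set of their own, over only 6 arrays. Values this high arise readily among so many genes and so few arrays, and no link was tested.

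Among 24 other chemokine ligands with a probe set, 0 were higher and 0 lower in 3D by limma at an adjusted p under 0.05, while an unadjusted p under 0.05 was reached by 5 that were higher (beside 7.17% of all probe sets) and 0 that were lower (beside 7.94%). Their median log2 difference was 0.26, against 0.07 for all genes, and 8 of the 24 had all 3D arrays above all 2D arrays, beside 12.7% of all probe sets. The largest log2 differences were 1.37 for CXCL17, a mucosal chemokine (adjusted p = 0.205), 0.99 for CXCL11 as given above, 0.77 for CCL24, an eosinophil attractant (adjusted p = 0.0984), and 0.73 for CCL5, an attractant of T cells and monocytes (adjusted p = 0.113). Of these, CXCL17, CCL24 and CCL5 were named after their values were seen. Without 3D replicate 2, CXCL17 had an adjusted p of 0.0304 by limma, so that 1 gene passed, beside 150 of all probe sets. Of 18 chemokine receptors, 0 were past the threshold in either direction, while 2 that were higher and 1 that was lower reached an unadjusted p under 0.05, counts close to the shares of 7.17% and 7.94% over all probe sets. The median log2 difference of the receptors was 0.09, and leaving out single arrays gave 0.10 (3D replicate 2 left out) to 0.17 (3D replicate 3 left out), with 0.15 when 2D replicate 2 and 0.14 when 3D replicate 1 was left out. CXCR1 and CXCR2, the receptors of the neutrophil-attracting members, were measured only by probe sets shared with other genes and were left out.

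Of 23 genes other than chemokines that NF-kB induces, 3 were higher in 3D, 0 were lower and 20 were not past the threshold. Over all probe sets, 0.145% were called higher and 0.236% lower. An unadjusted p under 0.05 by limma was reached by 6 that were higher (beside 7.17%) and 0 that were lower (beside 7.94%). For 8 of the 23, all 3D arrays lay above all 2D arrays, beside 12.7% of all probe sets. LCN2, which encodes an iron-binding protein of epithelial defence, had log2 signals of 9.86, 9.42 and 10.84 in 3D and 7.45, 7.32 and 7.51 in 2D (log2 difference 2.61, adjusted p = 0.0303 by limma). CFB, which encodes complement factor B, had log2 signals of 9.37, 8.85 and 9.73 in 3D and 7.35, 7.58 and 7.46 in 2D (log2 difference 1.85, adjusted p = 0.0300 by limma). NFKBIA, which encodes an inhibitor that keeps NF-kB out of the nucleus, had log2 signals of 8.94, 9.60 and 9.49 in 3D and 7.86, 7.78 and 7.17 in 2D (log2 difference 1.74, adjusted p = 0.0446 by limma). The groups of all 3 genes lay apart, and 3D replicate 2 was lowest for LCN2 and CFB and highest for NFKBIA. The median log2 difference of the 23 genes was 0.34. None of the 23 passed without 2D replicate 1, 2 or 3 or without 3D replicate 1. Over all probe sets, 0 passed without each 2D replicate and 7 without 3D replicate 1. NFKBIA did not pass without any 1 of the 6 arrays (adjusted p 0.0667 to 0.167 by limma).

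Of 36 interferon-stimulated genes, 1 was higher in 3D, 0 were lower and 35 were not past the threshold. Over all probe sets, 0.145% were called higher and 0.236% lower. The gene past the threshold was IFI27 (adjusted p = 0.0150 by limma). Its log2 signals were 8.28, 8.56 and 8.69 in 3D and 6.80, 6.61 and 6.61 in 2D, or 3.57-fold. Its call was lost without 2D replicate 1, 2 or 3 (adjusted p 0.0782 to 0.123 by limma), where 0 of all probe sets passed. The median log2 difference of the 36 genes was 0.37, with 34 above 0 and 2 below, and an unadjusted p under 0.05 was reached by 16 with a higher signal in 3D (beside 7.17% of all probe sets) and 1 with a lower signal (beside 7.94%). All 3D arrays lay above all 2D arrays for 16 of the 36 (beside 12.7% of all probe sets) and below for 1 (beside 10%). IFI44L, named after its values were seen, had a log2 difference of 1.87 (adjusted p = 0.0882 by limma), against 1.84 for IFI27. Without 3D replicate 2 the count past the threshold was 5 of the 36, and 150 of all probe sets passed, against 84 with all arrays.

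Of 27 genes of cytokines that can induce chemokines, of their receptors and of the antagonists IL1RN and IL36RN, 0 were past the threshold. An unadjusted p under 0.05 by limma was reached by 6 that were higher (beside 7.17% of all probe sets) and 1 that was lower (beside 7.94%). The median log2 difference of the 27 genes was 0.22. The largest difference was that of IL18, which encodes a cytokine of the interleukin-1 family and was named after its values were seen. Its log2 signals were 6.72, 5.88 and 6.30 in 3D and 8.01, 7.56 and 7.88 in 2D, so that every 3D array lay below every 2D array (log2 difference -1.51, adjusted p = 0.0595 by limma). IL1A and IL1B encode interleukin-1, a strong inducer of CXCL8 and CCL20 in epithelia. IL1A had log2 signals of 7.37, 6.63 and 8.07 in 3D and 5.75, 5.72 and 6.23 in 2D (log2 difference 1.46, adjusted p = 0.137 by limma), and IL1B had 6.23, 6.28 and 6.56 in 3D and 5.71, 5.43 and 5.76 in 2D (log2 difference 0.72, adjusted p = 0.131 by limma). IL1A and IL1B were higher in every 3D array than in any 2D array, without passing the test. The log2 difference was -0.04 for TNF (adjusted p = 0.930 by limma) and 0.05 for IFNG (adjusted p = 0.897 by limma), with overlapping groups. Without 3D replicate 2 the count past the threshold was 2, IL1A (adjusted p = 0.0481 by limma) and the interleukin-1 receptor gene IL1R1 (adjusted p = 0.0474 by limma). In that fit 150 of all probe sets passed, against 84 with all arrays.

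Among 13 regulators of chemokine mRNAs with AU-rich elements, 0 were past the threshold, while an unadjusted p under 0.05 was reached by 2 that were higher and 1 that was lower, beside 7.17% and 7.94% of all probe sets. Their median log2 difference was 0.13. Of 21 genes linked to the cutting or holding of chemokines, 1 was higher, 0 were lower and 20 were not past the threshold. Beside proteases and surface proteins, this list held the heparan sulfate enzymes EXT1, EXT2, NDST1 and HS2ST1. Over all probe sets, 0.145% were called higher and 0.236% lower. An unadjusted p under 0.05 by limma was reached by 5 that were higher (beside 7.17%) and 1 that was lower (beside 7.94%). The median log2 difference of the 21 genes was 0.23, but 0.12 when 2D replicate 1 was left out and 0.14 when 3D replicate 2 was left out. The gene past the threshold, MMP13, encodes a collagenase. It had log2 signals of 7.23, 7.03 and 7.08 in 3D and 5.19, 4.48 and 4.82 in 2D (log2 difference 2.28, adjusted p = 0.0150 by limma). Its call was lost without 2D replicate 1, 2 or 3 or 3D replicate 1 (adjusted p 0.0693 to 0.123 by limma). Over all probe sets, 0 passed without each 2D replicate and 7 without 3D replicate 1.

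**Figure D4:**
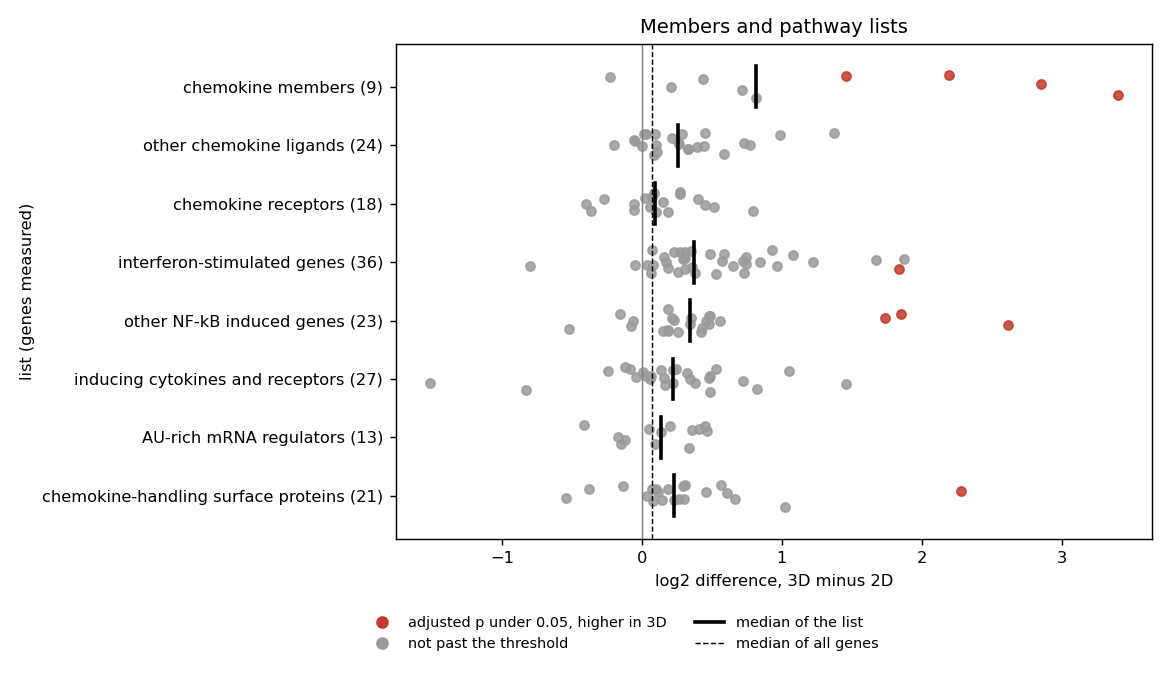
Log2 difference, 3D minus 2D (horizontal axis), of each member and of each gene of 7 pathway lists (rows, with the number of genes measured). Points are genes, red where higher in 3D at an adjusted p under 0.05, black bars are list medians and the dashed line is the median of all genes (0.07). List medians run from 0.09 (receptors) to 0.37 (interferon-stimulated genes), against 0.81 for the members.

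Markers of other cell types and the brightness of the probe sets are set beside these comparisons. Of 13 leukocyte markers 0 were past the threshold, their median log2 difference was 0.38, and their summed linear signal was 1168 to 1729 in 3D and 1224 to 1457 in 2D. This sum holds CD68, the brightest of these markers at a mean log2 signal of 9.66 in 3D and 9.81 in 2D, whose groups overlapped. Of the 13, 12 lay above 0, and an unadjusted p under 0.05 was reached by 3 that were higher (beside 7.17% of all probe sets) and 0 that were lower. CD14 (log2 difference 0.71, adjusted p = 0.144 by limma) and CSF1R (0.43, adjusted p = 0.297 by limma), both monocyte markers, had all 3D arrays above the 2D arrays. COL1A1, a collagen gene of fibroblasts, had a log2 difference of 0.26 (adjusted p = 0.551 by limma) and PECAM1, an endothelial adhesion gene, of -0.05 (adjusted p = 0.906 by limma), both with overlapping groups, and 0 of 9 fibroblast and 0 of 8 endothelial markers were past the threshold. The summed linear signal of the 9 fibroblast markers was 377 to 447 in 3D and 336 to 382 in 2D, and that of the 8 endothelial markers was 416 to 561 in 3D and 397 to 408 in 2D. Of 13 epithelial markers 0 were past the threshold, 12 lay below 0 with a median of -0.34 (-0.51 without 3D replicate 2), and their summed signal was 6170 to 7773 in 3D and 9233 to 9676 in 2D. An unadjusted p under 0.05 by limma was reached by 6 that were lower (beside 7.94%) and 0 that were higher (beside 7.17%). For 7 of the 13, all 3D arrays lay below all 2D arrays, beside 10% of all probe sets. The lowest log2 difference was -1.16 for KRT19 (adjusted p = 0.127 by limma). Over all genes the median log2 difference was 0.14 among the dimmest of 5 bins of mean signal and -0.01 among the brightest. The part of these shifts in the chemokine values was not tested, and in bulk RNA fewer cells of a type cannot be told from less RNA per cell.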

How the data were processed

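Total RNA of HCC827 cells was hybridised to 6 Affymetrix human exon arrays, 3 of 3D and 3 of 2D cultures. The deposited values are log2 signals for 22011 probe sets, which the authors computed by RMA (oligo package in R, version not given in the sources used here). RMA corrects background and makes the distributions of arrays equal, which hides any overall change in RNA. The values were used as deposited. The number of arrays limits the precision.

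Of the probe sets, 14432 carried 1 symbol, 2408 several and 5171 none, by the platform annotation. A gene was represented by its brightest probe set with that symbol alone, and each member had 1. The 3D minus 2D difference was fitted with limma 3.58.1 in R 4.3.3 (moderated statistics, 2-sided), and a gene was called at a Benjamini-Hochberg adjusted p under 0.05, taken across all 22011 probe sets. The fit was also run on simulated data with independent noise for each probe set. No simulated array stood apart, so that run cannot show how such an array moves the calls. The members and the gene lists were chosen with earlier results of these data known.

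The genes named were the members, shared probe sets, up to 3 genes past the threshold per pathway list and direction, CXCL9, CXCL11, TNF, IFNG, IL1A, IL1B, the 10 most like the neutrophil-attracting mean with and without group means, and KRT8, EPCAM, PTPRC, COL1A1 and PECAM1. Others were named after their values were seen.

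The fit was repeated without dim probe sets (below percentile 40), with an intensity trend, a robust prior, array weights, a replicate block, repeated quantile normalization, 1 probe set per gene, a threshold of 0.01 and leaving out each array. Promoters came from RefSeq (GRCh38.p14) and matched 9 of the 10 members. Python 3.11.15 and matplotlib 3.10.9 were used. The alternatives act on calls, and the closing section gives their effect.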

Additional observations from a re-analysis of the deposited data

How the results depend on the processing

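All member differences kept their sign under every alternative run. So did the 3D minus 2D difference of the gap between the neutrophil-attracting mean and CXCL10, from 0.61 to 0.95 without single arrays. Several alternatives, such as the intensity trend and the robust prior, cannot change a difference. Leaving out 1 of 3 arrays can move a group mean only by less than the spread of its arrays. Calls moved more. Against 84 probe sets past the threshold, array weights gave 415, 1 probe set per gene 185, the filter on dim probe sets 152 and the replicate block with array weights 161, while leaving out 1 array gave 0 to 150. A threshold of 0.01 gave 0 here and 0 members, interferon-stimulated, NF-kB induced or chemokine-handling genes. Without single arrays, 0 to 4 members passed, 0 to 1 other ligands, 0 to 5 interferon-stimulated genes, 0 to 2 NF-kB induced genes, 0 to 2 inducing cytokines and receptors and 0 to 1 chemokine-handling genes. With array weights 5 members passed (CXCL6 added), 1 other ligand, 7 interferon-stimulated genes (PSMB8 lower, 6 higher), 3 inducing cytokines and receptors (IL18 lower, IL1A and IL1R1 higher) and 2 chemokine-handling genes. With 1 probe set per gene, 3 interferon-stimulated genes (PSMB8 lower) and 1 inducing cytokine (IL18, lower) passed, and with the filter on dim probe sets 2 and 1 (IL18, lower). Fewer probe sets are tested under both. The replicate block with array weights gave 2 and 2 (IL18 lower, IL1A higher). The labels do not say whether 3D and 2D arrays of the same number belong together (r of same-numbered deviations 0.09, 0.37 and 0.22). With the replicate block alone, 86 probe sets, 3 members (CXCL2 lost) and 1 inducing cytokine (IL18, lower) passed, and it changed the count of no other list by over 1.5 times. Averaging probe sets per gene gave no other value, as each member has 1. The files hold no call of signal against background, so no fold is given for dim genes such as CXCL6 and CXCL10. The cause of the changes in calls was not tested.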
